A study of Mus musculus with 6 samples.

Results

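BIO, an indirubin-derived inhibitor of the kinase GSK3, was compared with its DMSO vehicle in J1 mouse embryonic stem cells, and the small RNA of the cells was described across all microRNA arms. The comparison takes the BIO and DMSO libraries, 2 of the 6 libraries of the series, and counts the sequenced tags that match a mouse microRNA hairpin without mismatch. Of 1264 hairpin arms with tags in the series, 1091 had tags in BIO or DMSO, and 472 reached 10 CPM (counts scaled to 1000000 microRNA tags of the library) in at least one of them. The other 619 arms were below that level and are not described singly.

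Per the labels, all cells were J1 mouse embryonic stem cells on 0.2% gelatin with 1000 U/ml leukemia inhibitory factor, and RNA was taken after 24 h. The BIO cells received 1 µM BIO and the DMSO cells 1 µL of DMSO. A second vehicle culture with 1 µL of ddH2O is given beside them, and values of the cells treated with 3 µM CHIR99021, another GSK3 inhibitor, are given for some arms. The labels name no culture replicates, each group has 1 library, and no test between the conditions was possible. The submitters' label states that the raw data of the BIO library were lost, and its deposited table of tags was used here.

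GSK3 phosphorylates beta-catenin and thereby marks it for degradation, so its inhibition raises beta-catenin and Wnt target genes. In mouse embryonic stem cells GSK3 inhibitors favour self-renewal together with leukemia inhibitory factor. A microRNA hairpin is cut by Drosha and Dicer into a 5p and a 3p arm, one of which is loaded into Argonaute and finds its targets mainly through bases 2 to 8, the seed. The 3′ end of a loaded microRNA can be trimmed or extended without a change of seed, which gives shorter and longer forms of one arm.

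The mature microRNAs on which the description turns are printed 5′ to 3′ from RefSeq (GRCm38.p6) with the seed in capitals. Of the 472 measured arms, 382 matched a RefSeq mature entry. Some members of the miR-302/miR-367 cluster and of miR-290-295 share a seed, so one of each is shown, with the 5p arm of miR-302a that was called.
miR-302d-3p: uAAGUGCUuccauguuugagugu
miR-294-3p: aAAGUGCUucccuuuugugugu
miR-302a-5p: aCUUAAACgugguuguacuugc
MiR-211-5p, which stood at a low level, shares the seed of its paralog miR-204-5p.
miR-211-5p: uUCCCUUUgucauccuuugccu
miR-204-5p: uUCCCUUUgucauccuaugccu
MiR-222-3p and miR-221-3p come from one primary transcript and share a seed, and differ beyond it.
miR-222-3p: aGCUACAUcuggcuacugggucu
miR-221-3p: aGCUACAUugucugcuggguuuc
Of the Dlk1-Dio3 cluster, 6 members are shown to make plain that the cluster does not share a seed.
miR-434-3p: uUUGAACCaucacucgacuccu
miR-379-5p: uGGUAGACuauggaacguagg
miR-1197-3p: uAGGACACauggucuacuucu
miR-323-3p: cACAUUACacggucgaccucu
miR-382-5p: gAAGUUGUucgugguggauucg
miR-377-5p: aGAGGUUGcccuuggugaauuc

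The DMSO library held 18870345 tags and the BIO library 22258922, within the range of all 6 libraries (18870345 to 23758363). The share of microRNA tags was 11.42% in DMSO (11.41 to 11.43%, 95% Clopper-Pearson), 9.433% in BIO (9.421 to 9.445%) and 8.587% in ddH2O (8.575 to 8.599%). Taking 3 counts as the limit, an arm without tags could have stood at up to 1.39 CPM in DMSO and 1.43 CPM in BIO. All intervals cover counting error only, because the reads carry no molecular identifiers and are not independent molecules, and the spread between cultures was not measured. The stem cell identity of both libraries was read from the miR-290-295 cluster, the main microRNA cluster of pluripotent mouse cells, whose 16 arms summed to 291810 CPM in DMSO and 307622 CPM in BIO. Fibroblast and mesenchymal arms (miR-143, miR-145, miR-199, miR-214, miR-21a, miR-22) summed to 7006 and 5558 CPM, neural arms to 11296 and 12268 CPM, muscle and heart arms to 1605 and 1443 CPM, endoderm and liver arms to 5223 and 4793 CPM, and blood cell arms to 291 and 299 CPM.

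An arm was called when its 2 levels differed at least 2-fold, the 95% exact conditional binomial interval of the ratio excluded 1, and the higher level reached 10 CPM. By this rule 25 of 472 arms were lower in BIO (5.3%) and 9 were higher (1.91%). The 2 vehicle libraries differed in as many arms: 24 of 484 were higher in ddH2O than in DMSO (4.96%) and 11 were lower (2.27%). Among arms of at least 100 CPM in either library, 84.4% of 244 arms lay within 1.5-fold between BIO and DMSO, with an SD of log2 ratios of 0.42, against 81.5% of 254 arms and an SD of 0.48 between the vehicles. The number of called arms thus did not set BIO apart from a second vehicle, and most levels below are given with that of ddH2O beside them. In bulk RNA, fewer cells with a microRNA and less of it per cell cannot be told apart.

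**Figure D1:**
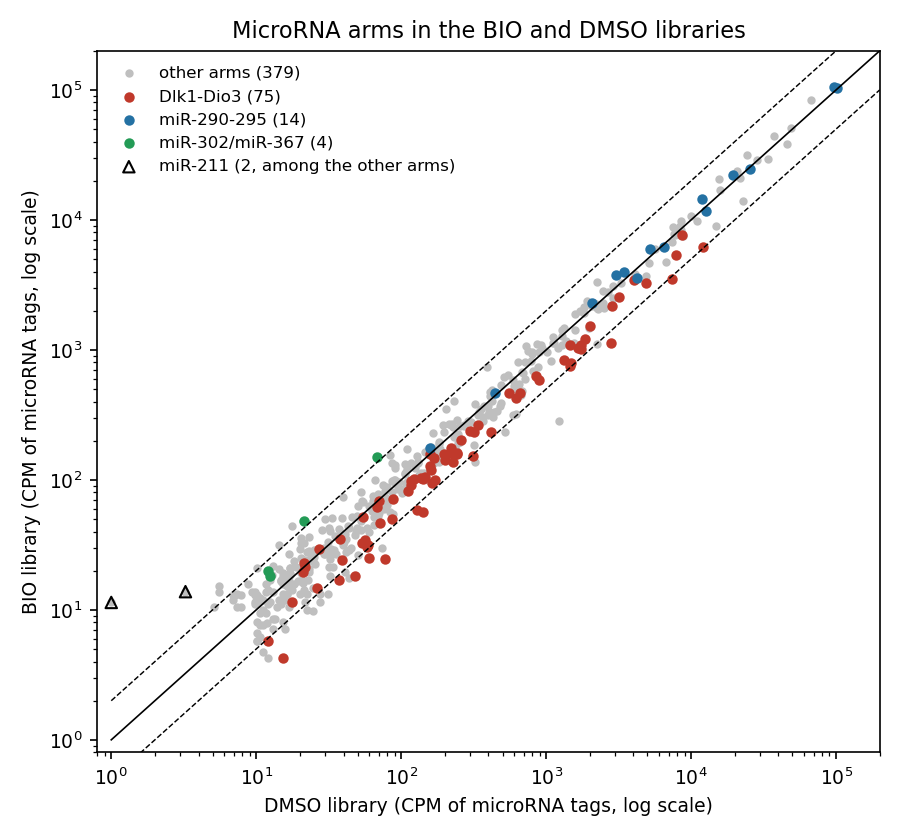
Level of each of the 472 measured arms in the DMSO library (x axis, CPM, log scale) and the BIO library (y axis, CPM, log scale). Points are arms, levels under 1 CPM are drawn at 1, the solid line is equality and the dashed lines are 2-fold. The Dlk1-Dio3 arms lie mostly under the line of equality, the miR-302/miR-367 arms above it, and the miR-290-295 arms along it.

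MicroRNA tags were longer in the BIO library than in any other. Tags of 18 to 20 bases, called short here, were 3.9% of microRNA tags in BIO (81844 tags, interval 3.87 to 3.92%) and 9.53% in DMSO (205349 tags, interval 9.49 to 9.57%). The share was 6.98% in ddH2O, 6.92% in CHIR99021, 8.04% in retinoic acid and 9.39% in vitamin C, so BIO was the lowest and DMSO the highest of the 6 libraries. Over all small RNA, microRNA or not, tags of 18 and 19 bases were 8.01% of the BIO, 10.9% of the DMSO and 11% of the ddH2O library. The mean length of a microRNA tag was 22.29 bases in BIO, 22.05 in DMSO and 22.13 in ddH2O.

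**Figure D2:**
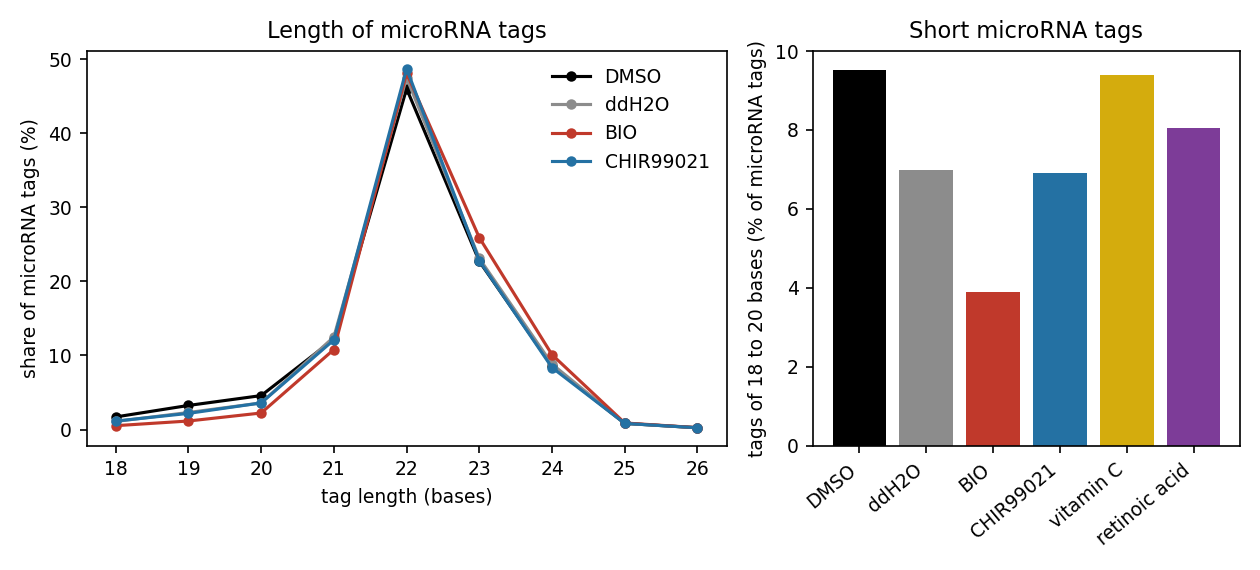
Left, share of microRNA tags (y axis, %) at each tag length (x axis, bases) in 4 libraries. Right, share of microRNA tags that are 18 to 20 bases long (y axis, %, from 0) in each of the 6 libraries, 1 bar per library with no error bar because there is 1 library per group; BIO stands lowest at 3.9% and DMSO highest at 9.53%.

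The shorter forms were fewer in BIO across most arms that had many short tags in DMSO. The set was 100 arms with 100 or more short and 100 or more longer tags in DMSO, and 100 or more longer tags in BIO. The short share was lower in BIO than in DMSO in 90, lower in ddH2O than in DMSO in 90, and lower in BIO than in ddH2O in 83. Its median over these arms was 10.7% in DMSO, 8.01% in ddH2O and 6.51% in BIO. Short tags were required only in DMSO, so the values set against DMSO lean toward a lower share in the other libraries. Short tags that end in CT made up 44% of the short tags of DMSO, and they stood at 41886 CPM in DMSO and 13576 CPM in BIO, 3.09 times lower, the largest ratio among the 16 possible endings. Much of that total came from single tags of a few abundant arms. In DMSO these were miR-101b-3p at 9258 CPM, miR-92a-3p at 7299 CPM and miR-323-3p at 6429 CPM, so arm and ending cannot be told apart here.

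The pairs below are tags as sequenced, written with T, and show the short and the full form of one arm, with the bases that only the full form has in capitals. Full here names the most abundant tag of 21 or more bases at the main start, whatever the length of the RefSeq entry. For miR-382-5p, as an example, that tag has 21 bases, against 22 in RefSeq. MiR-92a-3p belongs to miR-17-92 and its paralog cluster, miR-101b-3p is an abundant arm outside these clusters, miR-323-3p and miR-382-5p belong to Dlk1-Dio3, and miR-296-3p lies at the imprinted Gnas locus.
miR-92a-3p, short: tattgcacttgtcccggcct
miR-92a-3p, full: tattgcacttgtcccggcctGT
miR-101b-3p, short: gtacagtactgtgatagct
miR-101b-3p, full: gtacagtactgtgatagctGAA
miR-323-3p, short: cacattacacggtcgacct
miR-323-3p, full: cacattacacggtcgacctCT
miR-382-5p, short: gaagttgttcgtggtggatt
miR-382-5p, full: gaagttgttcgtggtggattC
miR-296-3p, short: gagggttgggtggaggct
miR-296-3p, full: gagggttgggtggaggctCTCC

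The short form of miR-92a-3p stood at 7299 CPM in DMSO, 5335 CPM in ddH2O and 1903 CPM in BIO, while the full form stood at 4025, 5967 and 4478 CPM. The short form of miR-101b-3p stood at 9258, 6357 and 2884 CPM in the same order, and the full form at 3010, 4098 and 3776 CPM. For miR-323-3p the short form stood at 6429, 4628 and 2093 CPM and the full form at 2396, 2706 and 2599 CPM. In these 3 arms the short form was lowest in BIO and the full form was not. Both arms of the miR-382 hairpin differed from them, since the short and the longer form were each lowest in BIO. For miR-382-5p the levels were 2393, 1426 and 639 CPM for the short and 2033, 1482 and 850 CPM for the form with 1 more base. For miR-382-3p, not printed above, they were 1552, 1011 and 319 CPM for the short tag and 603, 720 and 492 CPM for the 22-base tag. The short form of miR-296-3p was at 1135 CPM in DMSO, 192 CPM in ddH2O and 214 CPM in BIO, so the DMSO library stood apart from both others, and its full form was at 39.4, 38.9 and 41.9 CPM.

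The ratio of an arm between BIO and DMSO moved with its share of short tags, taken over all 6 libraries, among the 244 arms of at least 100 CPM. The 134 arms with under 5% short tags had a median log2 ratio of -0.05, and none of them was called lower. The 34 arms with 20 to 50% short tags had a median of -0.30, and of -0.20 when only tags of 21 to 26 bases were counted. They held 3 of the 8 lower calls at 100 CPM or more, and the 40 arms with 5 to 10% short tags held 2. The 16 arms with 50% or more short tags had a median of -0.76, held the other 3 lower calls, and had a median of 0.05 when only tags of 21 to 26 bases were counted. For this reason many of the ratios below are given also with tags of 21 to 26 bases alone, scaled to their own total, a setting chosen after the data were seen. With it, 19 of 456 arms were lower in BIO (4.17%) and 13 were higher (2.85%), and the SD of log2 ratios at 100 CPM or more was 0.36. Of the 25 arms called lower with all tags, 15 were called lower again, and 12 were called lower against ddH2O, a comparison with 9.88% of 486 arms lower and 4.32% higher. Of the 9 called higher, 6 were called higher again and 4 were called higher against ddH2O.

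**Figure D3:**
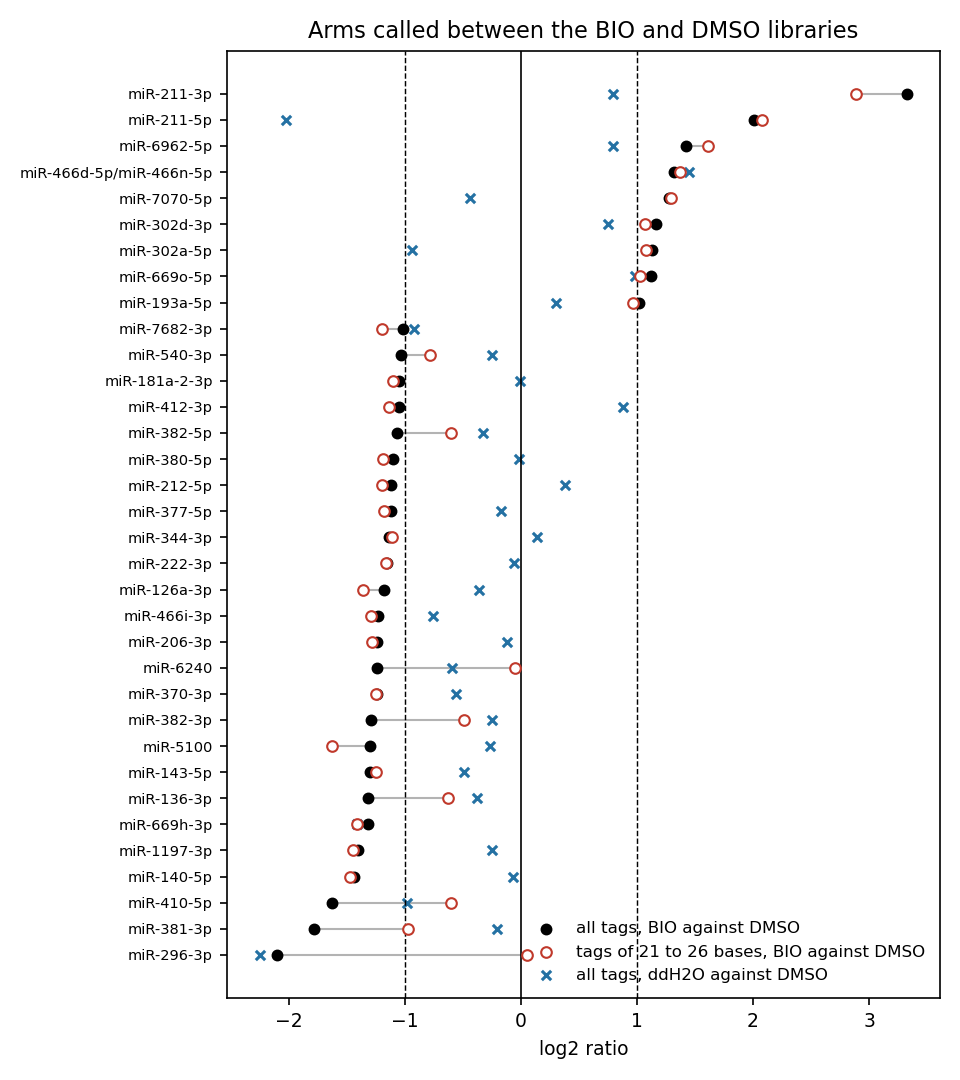
Log2 ratio (x axis) of each of the 34 arms called between the BIO and DMSO libraries (y axis): filled circles, all tags; open circles, tags of 21 to 26 bases; crosses, ddH2O against DMSO with all tags; dashed lines, 2-fold. Grey lines join the 2 BIO values of an arm, and they are long for miR-296-3p, miR-410-5p, miR-382-3p and miR-136-3p. MiR-6240 had no tags of 21 to 26 bases, so its open circle is set by the pseudocount alone and is not a measured ratio.

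Among the arms called higher, the miR-302/miR-367 cluster held 2 of 9, from 4 measured arms, beside 1.91% called higher over all arms. This cluster is transcribed in primed pluripotent cells and the early epiblast. Its measured miR-302 3p arms share the AAGUGCU seed with some miR-290-295 arms. MiR-302a-5p (chromosome 3, 127545501 to 127545523, GRCm38, outside any gene annotated on its strand) stood at 68.2 CPM in DMSO, 35.5 CPM in ddH2O and 150 CPM in BIO, 2.2-fold higher in BIO than in DMSO (interval 1.8 to 2.69). MiR-302d-3p (127545665 to 127545687) stood at 21.3, 36 and 48.1 CPM, 2.25-fold higher (1.58 to 3.27). The 2 other measured arms were higher without passing the call: miR-302a-3p at 12.1, 8.58 and 20 CPM and miR-302b-3p at 12.5, 9.15 and 18.1 CPM. All 4 measured arms, of 9 in the cluster, were thus highest in BIO among these 3 libraries. In CHIR99021 the same 4 arms stood at 75.6, 25.9, 21 and 12.6 CPM, each at or above its DMSO level and only miR-302a-3p above its BIO level. The sum over the cluster was 122 CPM in DMSO, 95.5 in ddH2O, 254 in BIO and 145 in CHIR99021, and the median log2 ratio was 0.93 between BIO and DMSO and 0.92 with tags of 21 to 26 bases, beside -0.09 over all measured arms in both settings.

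MiR-302a-5p has another seed, CUUAAAC. The measured miR-302 3p arms are a small part of the AAGUGCU seed family. MiR-294-3p, which carries the same seed, stood at 25358 CPM in DMSO, 22790 in ddH2O and 24724 in BIO, 1.03 times lower in BIO (1.01 to 1.04). The 5 measured arms whose most abundant tag has the AAGUGCU seed summed to 29620 CPM in DMSO, 26165 in ddH2O and 28413 in BIO. The sum thus followed the miR-290-295 members and not the miR-302 members. Each arm was placed by its most abundant tag only, so miR-295-3p, which has a second frequent start, is not in this sum with either start.

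MiR-211, a hairpin in an intron of the melanocyte channel gene Trpm1 (chromosome 7, 64205831 to 64205852 for the 5p arm), had the largest ratios of the arms called higher. Its 5p arm stood at 3.25 CPM in DMSO, 0.572 in ddH2O and 13.8 in BIO, 4.25-fold higher in BIO than in DMSO (1.82 to 11.5). Its 3p arm stood at 0.928, 1.72 and 11.4 CPM, 12.3-fold higher (3.06 to 108), with the DMSO level under the limit of 1.39 CPM that a count of 0 allows. Both arms were higher still in CHIR99021, at 112 CPM for 5p and 91 CPM for 3p, and at most 2.12 CPM in vitamin C and retinoic acid. MiR-211 was therefore above 10 CPM in the 2 libraries with a GSK3 inhibitor and under 4 CPM in the 4 others. With tags of 21 to 26 bases the 5p arm was called again (log2 ratio 2.08) and the 3p arm, at 5.45 CPM in BIO, no longer reached 10 CPM.

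The other 5 arms called higher were at 10 to 45 CPM in BIO, and 2 of them come from the Sfmbt2 intron, a rodent cluster of many similar hairpins. MiR-466d-5p/miR-466n-5p stood at 17.6 CPM in DMSO, 44.3 in BIO and 48.6 in ddH2O, and miR-669o-5p at 14.4, 31.4 and 28.6 CPM, so for both the ddH2O level was near that of BIO and DMSO stood alone. The cluster was not higher as a whole. Its 30 measured arms had a median log2 ratio of -0.17, with 17 below 0, 2 called higher and 1 called lower. Its miR-669a-3p/miR-669o-3p was among the 15 smallest ratios at 100 CPM or more. MiR-193a-5p was at 10.2 CPM in DMSO, 12.6 in ddH2O and 21 in BIO. MiR-6962-5p, at 5.57, 9.72 and 15.2 CPM, and miR-7070-5p, at 5.57, 4 and 13.8 CPM, lie in introns of Acvr1b and Fbxw9.

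At 100 CPM or more, only miR-302a-5p passed the call upward, and 14 further arms with the largest ratios stayed under 2-fold. MiR-196a-5p, from the Hox clusters, came next at 389.8 CPM in DMSO, 638 in ddH2O and 739 in BIO (1.9-fold, 1.74 to 2.06), with ddH2O close to BIO. The neural miR-219a-2-3p stood at 83.5, 60.6 and 154 CPM, which was 1.85-fold with all tags (1.54 to 2.23) and was called higher with tags of 21 to 26 bases (log2 ratio 1.11). MiR-365-2-5p, at 205, 151 and 348 CPM, was 1.7-fold higher (1.51 to 1.92) and highest in BIO among the 3 libraries. MiR-877-5p, a mirtron of Abcf1 made without Drosha, stood at 746, 306 and 977 CPM, so the vehicles differed more from each other than BIO from DMSO. The abundant miR-669c-5p of the Sfmbt2 intron stood at 15593, 14044 and 20686 CPM (1.33-fold, 1.31 to 1.35).

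The Dlk1-Dio3 cluster on chromosome 12, whose microRNAs are expressed from the maternal copy and lie in and near the noncoding genes antisense to Rtl1, Rian and Mirg, was lower in BIO along its length. Of its 103 arms 75 were measured, and of these 72 lay below a log2 ratio of 0, 11 were called lower and none higher, beside 5.3% lower over all arms. The median log2 ratio was -0.54 (quartiles -0.79 and -0.33, range -1.78 to 0.13), against -0.00 over the 397 other measured arms. The cluster summed to 78767 CPM in DMSO, 71782 in ddH2O, 51965 in BIO and 43087 in CHIR99021. BIO was below both vehicles in 67 of the 75 arms (89.3%) and in 163 of the 397 other arms (41.1%). The 3 exceptions above 0 were miR-1193-3p, miR-667-5p and miR-496a-3p, named after their values were seen.

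Short tags make up much of this cluster, and their share moved with the result: 26.3% in DMSO and 13.4% in BIO. With tags of 21 to 26 bases the median log2 ratio of the cluster was -0.51, BIO was below both vehicles in 64 of 73 arms, and the other arms had a median of -0.03. The number of arms called lower dropped from 11 to 6. The median of the cluster was thus nearly as low without the short tags, while some of its called arms passed under the 2-fold threshold.

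**Figure D4:**
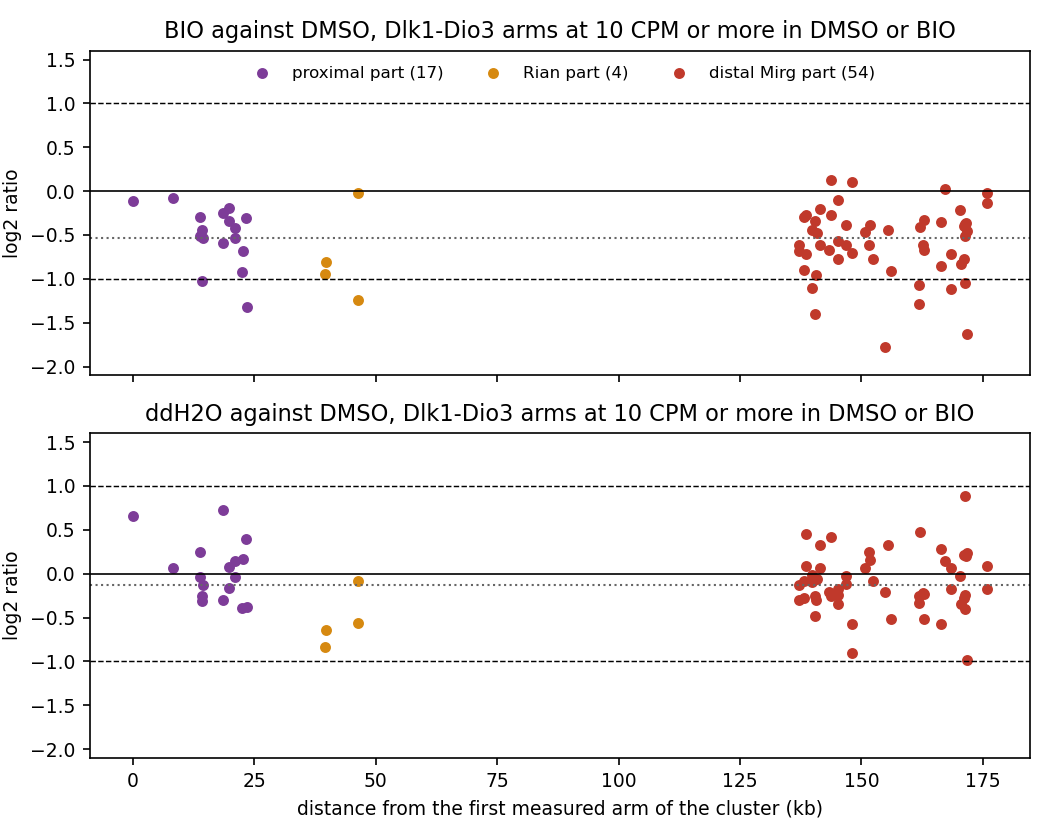
Log2 ratio (y axis) of the 75 measured Dlk1-Dio3 arms by distance from the first of them (x axis, kb), for BIO against DMSO above and ddH2O against DMSO below. Points are arms, colours are the 3 parts of the cluster, dashed lines are 2-fold and the dotted line is the median of the points drawn. In the upper panel 72 of 75 points lie under 0 in all 3 parts.

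In the proximal part, which lies around the antisense transcript of Rtl1 and includes miR-127 and miR-136, known to cut the Rtl1 mRNA, all 17 measured arms were below 0 and 2 were called lower, beside 5.3% over all arms. The median log2 ratio was -0.44 and -0.45 with tags of 21 to 26 bases, beside -0.04 for ddH2O against DMSO. MiR-127-3p stood at 7813 CPM in DMSO, 8583 in ddH2O and 5371 in BIO, 1.45 times lower in BIO than in DMSO (1.42 to 1.49). MiR-434-3p stood at 1659, 1861 and 1036 CPM, 1.6 times lower (1.52 to 1.69), and miR-337-5p at 659.8, 641 and 462 CPM, 1.43 times lower (1.31 to 1.55). In these 3 arms fewer than 6% of tags were short, and BIO stood under both vehicles. MiR-433-3p, the most abundant arm of this part, was at 8660, 7730 and 7588 CPM, with BIO next to ddH2O. The called arms were miR-136-3p, at 142, 109 and 56.7 CPM, and miR-540-3p, at 312, 262 and 153 CPM, and with tags of 21 to 26 bases their log2 ratios went from -1.32 to -0.63 and from -1.03 to -0.78.

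The Rian part holds miR-341, miR-1188 and miR-370 in introns of Rian, and its 4 measured arms had a median log2 ratio of -0.88, or -0.47 with tags of 21 to 26 bases. The ddH2O library was lower than DMSO there too, with a median of -0.60. BIO against ddH2O gave -0.14, beside -0.26 over all arms measured in that comparison. MiR-341-3p stood at 1456 CPM in DMSO, 814 in ddH2O and 755 in BIO, and miR-1188-5p at 164, 105 and 93.8 CPM. For both, DMSO stood above 2 libraries that lay close together, and with tags of 21 to 26 bases their log2 ratios went from -0.95 to -0.51 and from -0.81 to -0.43. With untemplated 3′ ends counted, that of miR-341-3p was -0.24. MiR-370-3p was called lower at 59.9, 40.6 and 25.2 CPM, with a log2 ratio of -1.24 and of -1.25 with tags of 21 to 26 bases.

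In the distal part, which includes the miR-379/miR-410 array ending in Mirg, 51 of 54 measured arms were below 0 and 8 were called lower, beside 5.3% over all arms. The median log2 ratio was -0.59, or -0.52 with tags of 21 to 26 bases, beside -0.11 for ddH2O against DMSO. MiR-379-5p, the first hairpin of the array, stood at 1853 CPM in DMSO, 1688 in ddH2O and 1207 in BIO, 1.53 times lower in BIO (1.46 to 1.61). MiR-543-3p stood at 4846, 4103 and 3275 CPM, 1.48 times lower (1.44 to 1.53). MiR-541-5p stood at 4012, 3933 and 3440 CPM, 1.17 times lower (1.13 to 1.2). The ratio thus varied within the array, and BIO was the lowest of the 3 libraries for each of these arms.

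The called arms of the distal part were of 2 kinds, those called also with tags of 21 to 26 bases and those not. MiR-377-5p (chromosome 12, 109740515 to 109740535, in an exon of Mirg) stood at 128 CPM in DMSO, 113 in ddH2O and 58.6 in BIO, 2.18 times lower (1.75 to 2.72), with a log2 ratio of -1.18 for tags of 21 to 26 bases. MiR-1197-3p stood at 48.3, 40.6 and 18.1 CPM, miR-380-5p at 37.1, 36.6 and 17.1 CPM, and miR-412-3p at 12.1, 22.3 and 5.72 CPM, and all 3 were called in both settings. MiR-382-5p, which lies in an intron of Mirg (109733781 to 109733800), was counted at 7421, 5900 and 3530 CPM, and its log2 ratio went from -1.07 to -0.60. MiR-382-3p, from the same hairpin, stood at 2780, 2332 and 1136 CPM, and went from -1.29 to -0.49. MiR-410-5p, at 77, 38.9 and 24.8 CPM, went from -1.63 to -0.60, and miR-381-3p, at 15.3, 13.2 and 4.29 CPM, from -1.78 to -0.97. MiR-323-3p, at 12070, 9819 and 6212 CPM the most abundant arm of the cluster in DMSO, was 1.94 times lower with all tags (1.9 to 1.98) and had a log2 ratio of -0.10 with tags of 21 to 26 bases. Conversely, miR-539-5p was called only with these longer tags, at 64.1 CPM in DMSO, 43.7 in ddH2O and 31.7 in BIO among them.

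Outside Dlk1-Dio3, miR-222-3p was the called arm at 100 CPM or more whose ratio did not depend on short tags. It lies on chromosome X (19146901 to 19146923, outside any gene annotated on its strand) and, with miR-221, targets the cell cycle inhibitor p27. MiR-222-3p stood at 518 CPM in DMSO, 497 in ddH2O, 372 in CHIR99021 and 233 in BIO, 2.22 times lower in BIO than in DMSO (1.99 to 2.47). Its log2 ratio was -1.15, and -1.16 with tags of 21 to 26 bases. MiR-221-3p, with the same seed, stood at 366, 485, 387 and 285 CPM, 1.28 times lower (1.15 to 1.43), and miR-221-5p at 16.7, 24.6, 11.9 and 10.5 CPM. All 3 measured arms of the pair were lowest in BIO among these 4 libraries, with a median log2 ratio of -0.66.

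The remaining calls at 100 CPM or more outside Dlk1-Dio3, miR-296-3p and miR-6240, rested on short tags. MiR-296-3p, from the imprinted Gnas locus, had the largest ratio, at 1220 CPM in DMSO, 257 in ddH2O and 285 in BIO, 4.28 times lower (3.92 to 4.69). In DMSO 95.7% of its tags were short, and with tags of 21 to 26 bases its levels were 57.4, 59.6 and 59.5 CPM. MiR-6240, all of whose tags were short, stood at 323, 214 and 136 CPM, and large-subunit rRNA was not searched for its tags. MiR-27a-3p/miR-27b-3p, whose arms share their most abundant tag, was 1.99 times lower (1.9 to 2.1) at 2229, 2274 and 1117 CPM, just short of the call, and had a log2 ratio of 0.34 with tags of 21 to 26 bases.

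Outside Dlk1-Dio3, 11 further arms were called lower at 10 to 100 CPM. The chondrocyte-linked miR-140-5p stood at 12.1 CPM in DMSO, 11.4 in ddH2O and 4.29 in BIO, while miR-140-3p from the same hairpin stood at 66818, 76089 and 83646 CPM. The neural miR-212-5p stood at 15.8, 20.6 and 7.14 CPM, the muscle miR-206-3p at 27.4, 25.2 and 11.4 CPM, miR-344-3p at 22.3, 24.6 and 10 CPM, and miR-181a-2-3p at 40.8, 40.6 and 19.5 CPM. In these 5 arms BIO was below both vehicles, and each was called also with tags of 21 to 26 bases. MiR-212-5p and miR-206-3p do not stand for their lists. The 11 measured neural arms had a median log2 ratio of 0.19, with 3 below 0. Of the 3 measured muscle and heart arms, 2 were below 0. The neural miR-124a-3p and the muscle miR-499-5p were among the 15 largest ratios of BIO to DMSO at 100 CPM or more. The endothelial miR-126a-3p was at 11.1, 8.58 and 4.76 CPM. For miR-669h-3p (24.8, 9.15 and 9.76 CPM) and miR-7682-3p (27.4, 14.3 and 13.3 CPM) ddH2O stood with BIO. MiR-466i-3p (31.3, 18.4 and 13.3 CPM), miR-143-5p (74.2, 52.6 and 30 CPM) and miR-5100 (43.6, 36 and 17.6 CPM) had ddH2O between the others, and miR-143-5p and miR-5100 had over 85% short tags in all 3 libraries.

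The most abundant microRNAs differed little. MiR-293-3p stood at 101118 CPM in DMSO, 101958 in ddH2O and 103384 in BIO, and miR-290a-5p at 96000, 76979 and 105084 CPM. None of the 14 measured arms of miR-290-295 was called, and their median log2 ratio was 0.14, or 0.07 with tags of 21 to 26 bases. MiR-295-3p kept its 2 start positions: the main start held 60.9% of its tags in DMSO and 62.2% in BIO, and the start 1 base upstream, which gives another seed, held 38.7% and 37.5%. The let-7 family, which rises with differentiation, summed to 86932 CPM in DMSO, 82116 in ddH2O and 97705 in BIO, with 0 of 9 measured arms called and a median of 0.10. Among the 10 most abundant arms in DMSO the ratio of BIO to DMSO lay between 1.29-fold higher for let-7f-5p and 1.2 times lower for miR-25-3p.

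The miR-17-92 cluster, which promotes proliferation, was lower in its sum, with 6 of its 9 measured arms below a log2 ratio of 0. It summed to 18416 CPM in DMSO, 18824 in ddH2O and 12357 in BIO, 1.49 times lower, while the median log2 ratio of these arms was -0.08 and none was called. The sum is dominated by miR-92a-3p, at 14847, 14843 and 9026 CPM, whose short share was 52.1% in DMSO and 22.2% in BIO. With tags of 21 to 26 bases miR-92a-3p stood at 7868 CPM in DMSO, 9906 in ddH2O and 7308 in BIO, and the cluster sum was 1.08 times lower. MiR-17-5p stood at 1013, 1171 and 958 CPM, a ratio whose interval included 1 (1.06 times lower, 0.995 to 1.12). The 5 measured arms with the AUUGCAC seed, miR-25, miR-92a, miR-92b, miR-363 and miR-32, had a log2 ratio of their sums of -0.36 with all tags and -0.11 with tags of 21 to 26 bases, and the miR-101a and miR-101b arms with the UACAGUA seed -0.52 and 0.05.

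Of 19 arms of microRNAs reported to act on the Wnt pathway, such as miR-135, miR-34a, miR-200a, miR-29a, miR-27 and miR-31, 9 were measured and none was called, beside 5.3% lower and 1.91% higher over all arms. The median log2 ratio was 0.07, beside 0.46 for ddH2O against DMSO. BIO against ddH2O gave -0.45 with 8 of the 9 below 0. The median over all 486 arms measured between BIO and ddH2O was itself -0.26. MiR-200a-3p stood at 426 CPM in DMSO, 680 in ddH2O and 401 in BIO, and miR-29a-3p at 2670, 3276 and 2804 CPM. Of 13 arms of microRNAs reported to act on Nanog, Oct4 or Sox2, 9 were measured, only miR-296-3p was called, and the median was -0.02, beside 0.38 for ddH2O against DMSO and -0.44 for BIO against ddH2O. MiR-134-5p, a Dlk1-Dio3 member in that list, stood at 1461, 2017 and 1099 CPM, 1.33 times lower (1.26 to 1.4).

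The miR-30 family was lower in 9 of its 10 measured arms without a call, with a median log2 ratio of -0.33, beside 0.14 for ddH2O against DMSO. MiR-30a-5p stood at 1960 CPM in DMSO, 2261 in ddH2O and 1463 in BIO, 1.34 times lower (1.28 to 1.4). The miR-181 family had a median of -0.44 over 7 arms, with 0.40 for ddH2O against DMSO. MiR-181a-5p stood at 459.8, 806 and 338 CPM and miR-181b-5p at 677, 1068 and 481 CPM. MiR-181c-5p stood at 1212, 1535 and 1028 CPM, and miR-181d-5p, the most abundant, at 20843, 27434 and 23841 CPM. MiR-21a-5p, at 4877, 7349 and 3720 CPM, and the mesenchymal miR-199a-3p/miR-199b-3p, at 805, 957 and 683 CPM, were lowest in BIO among the 3. The 7 measured fibroblast and mesenchymal arms had a median of -0.24. The muscle miR-1a-3p, at 1376, 2818 and 1161 CPM, and miR-10a-5p, at 484, 1158 and 369.6 CPM, differed more between the vehicles than between BIO and DMSO. The miR-200 family, the miR-183/miR-96/miR-182 cluster and miR-15/16 had medians between -0.16 and 0.12 with no call.

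**Figure D5:**
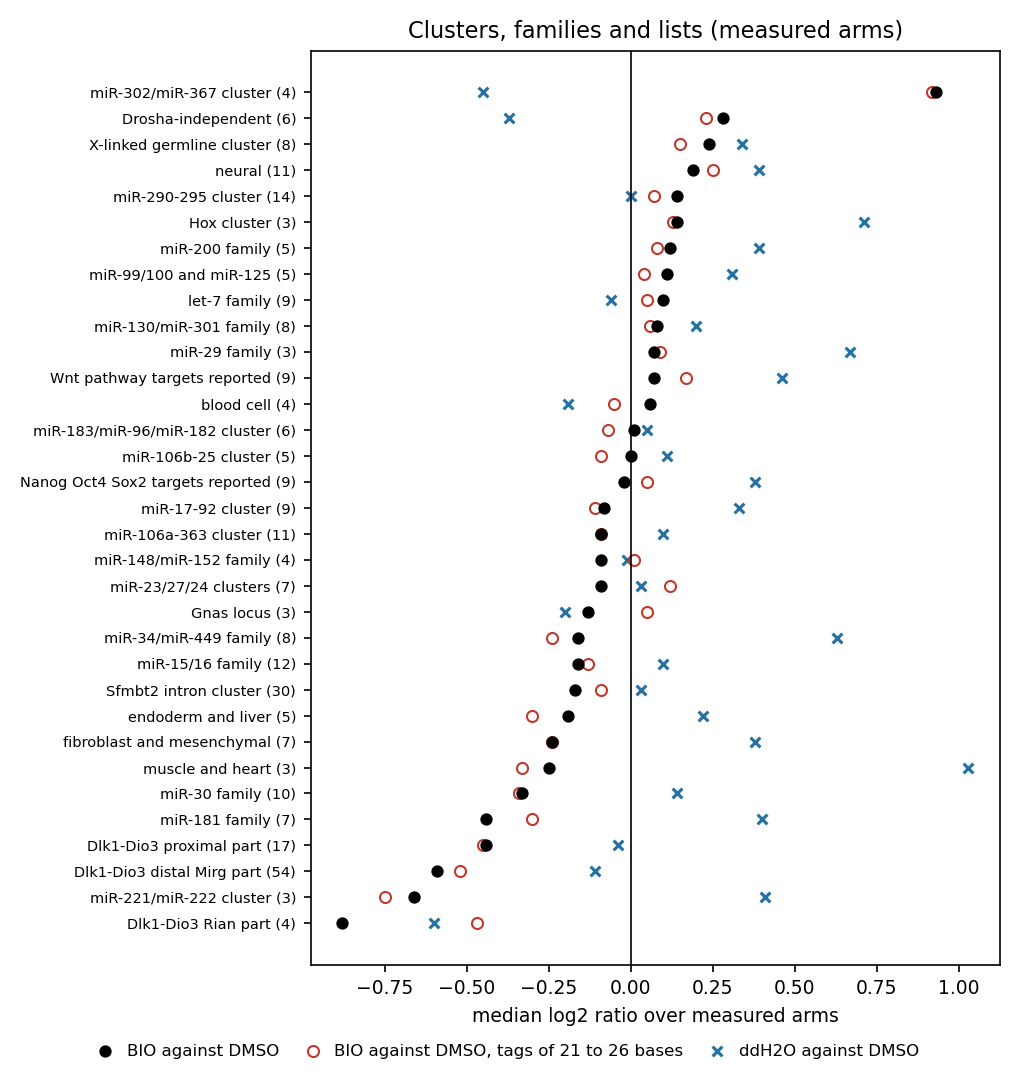
Median log2 ratio (x axis) over the measured arms of each cluster, family or list (y axis, number of measured arms in brackets; lists with at least 3). Filled circles are BIO against DMSO with all tags, open circles the same with tags of 21 to 26 bases, crosses ddH2O against DMSO; miR-302/miR-367 at 0.93 is the highest BIO median, and the Dlk1-Dio3 parts and miR-221/miR-222 are the lowest at -0.44 to -0.88, beside the miR-181 family at -0.44.

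The balance between the 5p and 3p arms of a hairpin, which needs no scaling between libraries, moved by 10 percentage points or more between DMSO and BIO in 8 of 131 hairpins, and between the vehicles in 15 of the same 131. Mir296 moved most, from 34.4% of its tags on the 5p arm in DMSO (32.9 to 35.9%) to 73.9% in BIO (72 to 75.7%), but ddH2O stood at 75%, and with tags of 21 to 26 bases the change was 1.28 points. Among these 8, Mir150, a hairpin of mature lymphocytes, was the case in which the vehicles lay together and BIO apart, at 78.5% in DMSO (73.3 to 83%), 78.2% in ddH2O and 65.2% in BIO (59.6 to 70.6%), on 297 and 302 tags in DMSO and BIO. With tags of 21 to 26 bases its change was -15.88 points. A smaller change with the vehicles together was that of Mir9-1, at 83% in DMSO, 82.3% in ddH2O and 74.8% in BIO. The 6 other hairpins that moved by 10 points or more were Mir466d, Mir467a-1, Mir136, Mir669a-1 and Mir467e toward the 5p arm and Mir410 toward the 3p arm. In each of these 6, ddH2O had moved from DMSO the same way by 8.93 points or more. With tags of 21 to 26 bases the change of Mir410 went from -12.62 to -1.17 points.

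The 5′ ends, which set the seed, were the same in both libraries for nearly all arms. Of 230 arms with enough tags, 220 had a share of tags at their main start within 5 percentage points between BIO and DMSO, and 220 did between the vehicles. The 3′ ends differed more: the mean tag was longer in BIO than in DMSO in 197 of the 230 arms, by a median of 0.08 bases, and longer in ddH2O than in DMSO in 176, by a median of 0.07. Tags with 1 untemplated A at the 3′ end were 3.53% in DMSO, 3.77% in ddH2O and 3.91% in BIO, and tags with 1 untemplated U 3.66%, 4.31% and 3.85%.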

How the data were processed

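The deposited files list, for each library, distinct tags of 18 to 44 bases with the length of each tag and raw counts per tag; that these are counts was checked on the values. Trimming, filters and mapping are not given in the sources used here, and the submitters' processing notes name the genome mm9. Per the labels' protocols, RNA was extracted with TRIzol and made into libraries with a TruSeq RNA kit.

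Exact matches of 18 to 26 base tags to 1174 microRNA hairpins of GENCODE M21 (GRCm38) were kept. Each arm is centred on its most abundant tag, and tags starting within 2 bases of it were counted. Tags of several arms were split evenly, and tags that also match snoRNA, scaRNA, snRNA, rRNA, mitochondrial tRNA or Gm42418 were removed; large-subunit rRNA and nuclear tRNA were not searched. Levels are CPM of the library's microRNA tags; log2 ratios use a pseudocount of 0.5. Intervals of ratios are 95% exact conditional binomial (Clopper-Pearson, scipy 1.17.1). With 1 library per group no test was made, and counting was checked on simulated data. Named arms are, at 100 CPM or more, the 15 largest and 15 smallest ratios, the 10 most abundant in DMSO and up to 4 per list, and all called arms at 10 to 100 CPM; named hairpins are the 6 with the largest change in either direction. The 34 lists were written from general knowledge. The members and lists were chosen with earlier results of these data known.

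Alternatives were TMM (edgeR 4.0.16) and median-of-ratios (DESeq2 1.42.0) scaling, scaling to all tags, minimum levels of 1, 50 and 100 CPM, leaving out tags of several arms or tags seen once, adding tags with up to 3 untemplated bases, the most abundant tag alone, annotated mature starts and ddH2O as the control.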

Additional observations from a re-analysis of the deposited data

How the results depend on the processing

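The median log2 ratio of Dlk1-Dio3 (-0.54) was -0.43 with TMM, -0.41 with median-of-ratios and -0.82 with scaling to all tags, and that of miR-302/miR-367 (0.93) was 1.04, 1.06 and 0.65; these scalings shifted all arms by 0.11, 0.13 and -0.28. The miR-302/miR-367 median was 1.20 with the most abundant tag alone, 1.11 with annotated mature starts and 1.07 against ddH2O, and at a minimum of 50 or 100 CPM too few arms were left for one. The 9 arms called higher became 14 with median-of-ratios, 5 scaled to all tags, 22 with the most abundant tag, 21 against ddH2O, and 19, 1 and 1 at minimums of 1, 50 and 100 CPM. The 25 called lower became 19 with TMM, 17 with median-of-ratios, 17 with untemplated ends counted, 20 with annotated mature starts and 36 with the most abundant tag. They became 50 scaled to all tags, 48 against ddH2O, and 32, 11 and 8 at 1, 50 and 100 CPM. The 11 Dlk1-Dio3 arms called lower became 8 with TMM, 6 with median-of-ratios, 22 scaled to all tags, 7 with untemplated ends counted, 6 with tags of 21 to 26 bases, and 7 and 5 at 50 and 100 CPM. Called arms that changed sign were miR-296-3p (0.05 with tags of 21 to 26 bases, 0.15 against ddH2O), miR-6240 (0.20) and miR-5100 (0.00) with untemplated ends counted, and miR-669h-3p (0.08) and miR-466d-5p/miR-466n-5p (-0.13) against ddH2O; the cause was not tested. Of the 141 named arms, tags of 21 to 26 bases alone moved the log2 ratio of 55 beyond its counting interval. They changed the sign of 1 more, miR-296-3p, and left 84 the same, while miR-6240 had no such tags. No paired analysis was possible because each group has 1 library. At low levels the counting intervals are wide, as for miR-212-5p (1.17 to 4.36 times lower), and no setting adds the spread between cultures.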
